A study of Homo sapiens with 39 samples.

Results

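The data described here are the ascorbic acid libraries of a study of HepaRG™ cells, an established human hepatic cell line that yields hepatocyte-like and cholangiocyte-like cells when differentiated. They were found through the barcodes in the sample labels and are 3 of the 39 RNA-Seq libraries, 1 each at 1, 2 and 10 mM. Ascorbic acid was given as sodium ascorbate (ASC) in media and renewed daily for 3 days, and RNA was taken 7 h after the third treatment (55 h in all). The study used ASC as 1 of 10 chemicals, as a substance not expected to damage DNA directly. RNA of 3 cultures was pooled into each library, so each concentration had 1 library and the spread between cultures was not measured.

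The matched media control of the ASC libraries is VCP8. The other media controls are VCP1 (the control of NaCl), VCP3 (of 2-deoxy-D-glucose) and VCP9 (of ampicillin), which were treated with media alone for the same time. All groups were the same differentiated cell line in the same maintenance medium. A gene was counted as changed only if its log2(RPM + 1) differed by more than 1, that is 2-fold, in the same direction from VCP8 and from the mean of VCP1 and VCP3. RPM is the number of reads of a target per 1000000 reads of the library, measured with AmpliSeq, in which primers amplify 1 short target per gene. With 1 library per concentration this rule has no p value. The media control VCP9, which the rule did not use, was read in the same way.

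Ascorbate (vitamin C) is a water-soluble reductant that enters cells through the sodium-dependent transporters SLC23A1 and SLC23A2 and, in its oxidized form, through glucose transporters. It keeps iron in the reduced state in dioxygenases, among them the prolyl and lysyl hydroxylases that mature collagen, the EGLN enzymes that mark hypoxia-inducible factor (HIF) for degradation and the TET enzymes of DNA demethylation. At high concentration in culture media it can also oxidize and give rise to hydrogen peroxide. In liver cells, heme oxygenase-1 (HMOX1), heat shock proteins and targets of the transcription factor NRF2 are common readouts of oxidative stress, and the acute-phase proteins are secreted by hepatocytes in response to inflammatory cytokines.

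The deposited counts of the 3 ASC libraries and the 4 media controls summed to between 9839627 and 16425527 reads per library, and 61.1% to 63.9% of the 20802 gene targets had at least 10 reads. Hepatocyte markers were abundant in every library, with ALB between 14020 and 36330 RPM. Of the cholangiocyte markers, KRT19 had 942 to 1314 RPM, while KRT7, EPCAM and CFTR were at or near 0. The endothelial and leukocyte markers VWF, CDH5 and PTPRC were listed at 0, but the leukocyte marker CD14 had enough reads to be tested. The fibroblast markers LUM and DCN were present, with 36.2 to 201 RPM. Of the 14 markers of fibroblasts, stellate, endothelial and blood cells, 10 had at least 10 reads in 1 of the libraries that the rule used. The media controls fell into 2 pairs. Over 11562 targets with at least 10 reads in all libraries, Pearson's correlation of log2(RPM + 1), across genes, was 0.9925 between VCP8 and VCP9 and 0.9866 between VCP1 and VCP3, but only 0.9598 to 0.9727 between the pairs. Between the pairs, 560 targets were more than 2-fold higher in VCP1 and VCP3 and 29 were lower. On the 560 targets the median of the ASC libraries lay 0.74, 1.12 and 1.01 above VCP8 and VCP9 at 1, 2 and 10 mM on the log2 scale, of a difference of 1.25 between the pairs. The ASC libraries thus lay nearer VCP1 and VCP3 than VCP8 and VCP9 on these 560 targets. On the 29 others the order was the opposite, with medians of -0.05, -0.47 and -0.55 from VCP8 and VCP9 and 0.99, 0.67 and 0.59 from VCP1 and VCP3. Over the 11562 targets the 1 mM library correlated best with VCP9 (0.9821) and VCP8 (0.9789), and the 2 and 10 mM libraries with VCP3 (0.984 and 0.9827). The rule keeps only changes that both references show.

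Against VCP8 alone, 317, 601 and 526 of the 13746 targets with at least 10 reads in 1 of the 6 libraries were more than 2-fold higher at 1, 2 and 10 mM. Of these, 29 (0.211% of the targets tested), 21 (0.153%) and 19 (0.138%) were also 2-fold higher than VCP1 and VCP3. Lower than both references were 15 (0.109%), 31 (0.226%) and 71 targets (0.517%). The media control VCP9 gave 0 targets higher (0%) and 2 lower (0.0145%) by the same rule. VCP9 differed 2-fold from VCP8 in only 6 targets upward and 8 downward, so that it had few targets that could pass and is no background for libraries that lie further from VCP8. At 1 mM most changes were therefore upward, and at 10 mM most were downward. At 2 mM the share of upward changes was 40.4%, and 52.7% with DESeq2 size factors. Had VCP9 stood in for VCP8, an alternative chosen after seeing the data, the counts would have been 21, 17 and 15 higher and 1, 10 and 27 lower, so that the downward counts rest more on the matched control than the upward ones do. All 3 concentrations passed for 2 targets upward (0.0145%), CRP and C12orf39, and for 7 downward (0.0509%). Of the 29 upward changes at 1 mM, 11 (37.9%) were also found at 2 mM and 5 (17.2%) at 10 mM. In the other direction, 26.3% of the 19 upward changes at 10 mM and 52.4% of the 21 at 2 mM were found at 1 mM. No target that passed in one direction at 1 mM passed in the other at 10 mM.

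**Figure D1:**
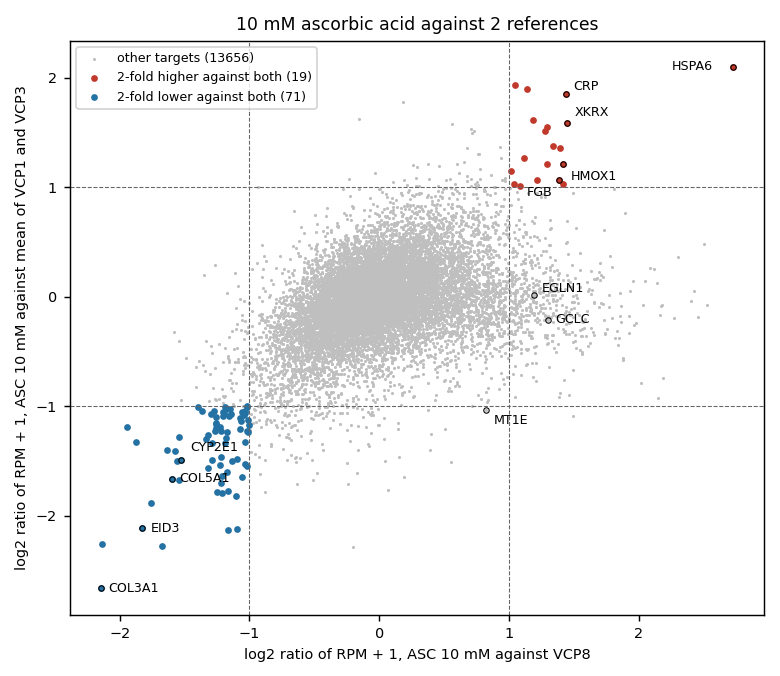
Each point is 1 of 13746 gene targets, with its log2 ratio of RPM + 1 at 10 mM ASC against the matched control VCP8 on the x axis and against the mean of VCP1 and VCP3 on the y axis. Dashed lines mark 2-fold, red points the 19 targets higher and blue points the 71 targets lower than both references. Grey points to the right of the dashed line, such as GCLC and EGLN1, were higher than VCP8 only.

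Both edgeR tests used the media controls as replicates of 0 mM. These controls fell into pairs, as given above, so they are not like replicates of one another. A difference between experiments that the ASC libraries share with only some controls cannot be told apart from exposure in these tests. With edgeR's quasi-likelihood test of the 3 ASC libraries against the 4 media controls, 4 of 13105 targets were called higher (0.0305%) and 0 lower (0%) at an adjusted p under 0.05. At an unadjusted p under 0.05 there were 726 higher and 833 lower. These 4 calls were lost when any 1 of the 7 libraries was left out, and DESeq2 on the same design called 96 higher and 124 lower. The test of a slope with concentration, on log2(mM + 1), called 0 of 13297 targets higher (0%) and 0 lower (0%), with 499 and 686 at an unadjusted p under 0.05, while DESeq2 called 18 and 48. The p values measure the spread between these pools, and the ASC libraries differ from each other in concentration. In 701 targets (5.1%) all 3 ASC libraries lay above all 4 media controls, and in 1150 (8.37%) they lay below them.

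The acute-phase genes, whose proteins the liver secretes in inflammation, had the highest share of members above both references of the 24 gene lists at each concentration. The lists and their members were chosen with earlier results of these data known. Counts of list members, here and below, are therefore descriptions and no independent test. FGB, which encodes the fibrinogen beta chain, had 3787, 4802 and 4735 RPM at 1, 2 and 10 mM, against 1808 in VCP8, 2259 in VCP1, 2260 in VCP3 and 2105 in VCP9. All 3 ASC libraries lay above every control. FGB rose in the edgeR test, with a log2 fold change of 1.10 (standard error 0.13, adjusted p = 0.0470). The upstream sequence of FGB is shown as that of the gene first in this test, 250 bases from RefSeq (GRCh38.p14, chr4:154562730-154562979, plus strand), with capitals on the letters CTGGGAA, the core of an interleukin-6 response element.

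FGB: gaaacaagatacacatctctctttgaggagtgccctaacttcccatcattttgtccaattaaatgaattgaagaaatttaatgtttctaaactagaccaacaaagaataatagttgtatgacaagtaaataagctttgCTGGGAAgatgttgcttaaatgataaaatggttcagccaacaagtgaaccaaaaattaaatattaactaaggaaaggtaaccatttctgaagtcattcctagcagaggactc

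These 7 letters, read on both strands, occur in 9.3% of the 27305 upstream windows of the same length in that table, and a match is a description only.

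CRP, the C-reactive protein gene, had 91.6, 113 and 121 RPM at 1, 2 and 10 mM, against 43.8 in VCP8, 48.7 in VCP1, 21.9 in VCP3 and 47.1 in VCP9. It was the only acute-phase gene past 2-fold against both references at all 3 concentrations, with log2 ratios of 1.44 against VCP8 and 1.85 against VCP1 and VCP3 at 10 mM. In the edgeR test its adjusted p was 0.0978, for a log2 fold change of 1.44. SAA2, a serum amyloid A gene, had the opposite order of concentrations, with 864 RPM at 1 mM, 763 at 2 mM and 582 at 10 mM, against 281 to 432 RPM in the controls. It passed at 1 mM only. SAA1 ran in parallel, at 5240, 4809 and 3818 RPM against 1914 to 2982. SAA1 and SAA2 are near-identical in sequence, so that reads could be divided between them.

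Of the 14 acute-phase genes, 3 passed upward at 1 mM, 2 at 2 mM and 2 at 10 mM, and 0 passed downward. Those at 1 mM were CRP, SAA2 and ITIH3, which had only 2.95 RPM, and those at 2 and 10 mM were CRP and FGB. At 10 mM, 12 of the 14 were higher than both references, as were 28.0% of all targets. In 10 of the 14 all 3 ASC libraries lay above all 4 controls, as in 5.1% of all targets. The median log2 ratio of the list was 0.65 against VCP8 and 0.74 against VCP1 and VCP3 at 1 mM, 0.56 and 0.79 at 2 mM, and 0.59 and 0.63 at 10 mM, the last being 1.03 without VCP1. Over all targets these 6 medians lay between -0.05 and 0.02. The other fibrinogen chains, FGA and FGG, had 300 and 3660 RPM at 10 mM against 142 to 202 and 1795 to 2442 in the controls. The haptoglobin gene HP had 4653 RPM against 2222 to 3565, and LBP, which binds bacterial lipopolysaccharide, had 24.0 against 11.3 to 16.3. The orosomucoid genes ORM1 and ORM2 had 4758 and 3950 RPM at 10 mM against 3908 to 5373 and 3299 to 4647, and the antichymotrypsin gene SERPINA3 had 2001 against 1057 to 1998.

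**Figure D2:**
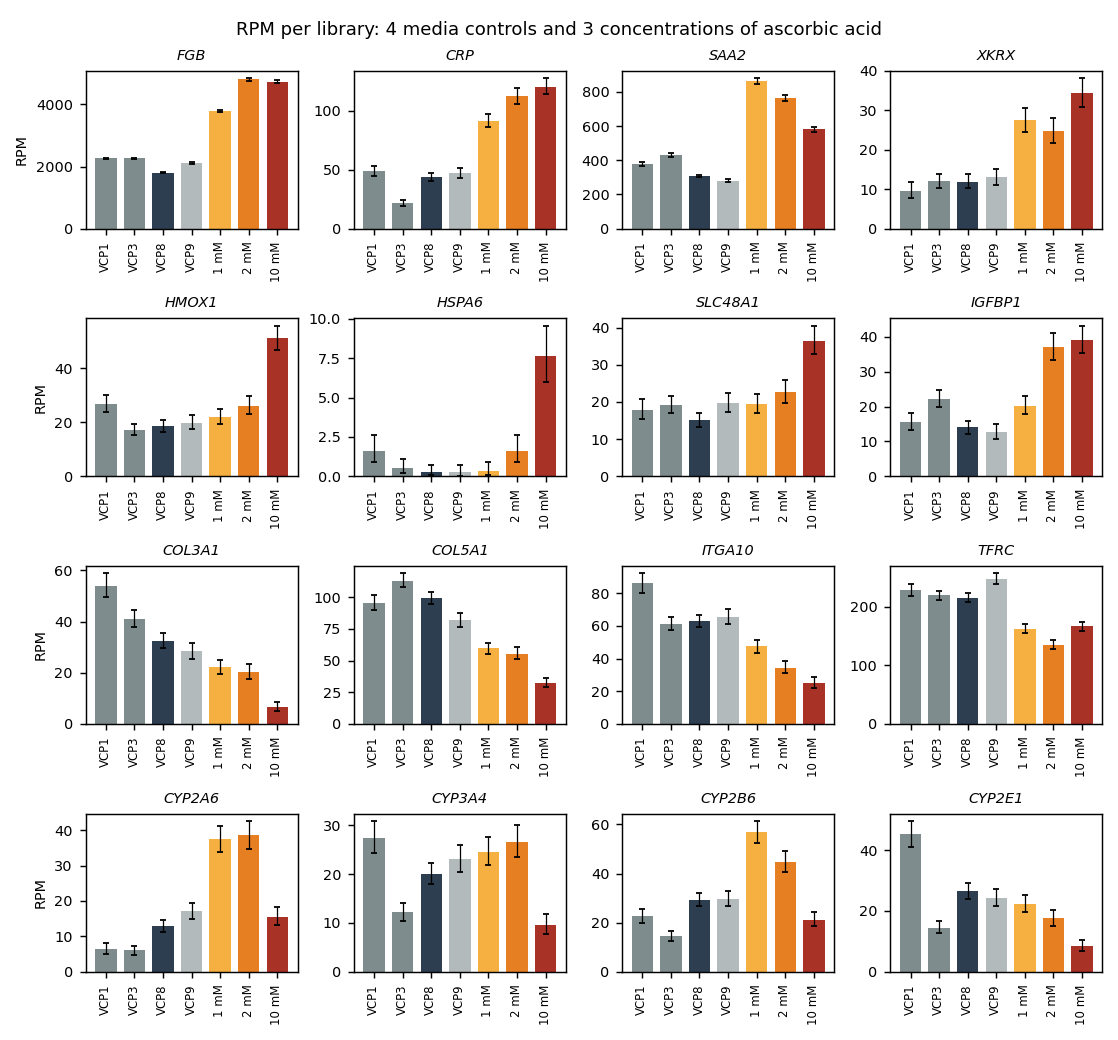
Bars give the RPM of 16 genes in the 4 media controls (VCP8 is the matched control) and at 1, 2 and 10 mM ASC, and black lines are exact 95% Poisson intervals, which cover counting error only. FGB, CRP, SAA2 and XKRX are above all controls at each concentration, HMOX1, HSPA6 and SLC48A1 are highest at 10 mM, COL3A1, COL5A1, ITGA10 and TFRC lie below all controls, and CYP2A6 and CYP2B6 are above all controls at 1 and 2 mM but not at 10 mM.

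The remaining edgeR calls were XKRX, ACSL1 and DUSP9. XKRX, a member of the XK family of membrane proteins, had 27.5, 24.8 and 34.3 RPM at 1, 2 and 10 mM, against 11.9 in VCP8, 9.65 in VCP1, 12.0 in VCP3 and 13.0 in VCP9 (edgeR log2 fold change 1.32, standard error 0.16, adjusted p = 0.0470). ACSL1, a fatty acyl-CoA ligase, had 961, 815 and 870 RPM against 413 to 519 (log2 fold change 0.88, standard error 0.11, edgeR adjusted p = 0.0470). DUSP9, a phosphatase of MAP kinases, had 66.4, 61.6 and 54.9 RPM against 25.9 to 36.1 (log2 fold change 1.04, standard error 0.13, edgeR adjusted p = 0.0470). In each of these genes the ASC libraries did not overlap the controls. HAVCR1, which encodes kidney injury molecule-1, had 29.1, 28.1 and 37.1 RPM against 11.4 to 19.2, and PROC, the protein C gene, had 5.03, 4.65 and 6.504 against 1.02 to 2.35. C12orf39, which encodes the peptide hormone spexin, had 7.54, 8.90 and 8.94 RPM against 1.73 to 3.48. The interferon-inducible genes MX1 and IFI44L, picked out after their values were seen, had 26.1, 26.6 and 28.9 RPM against 11.7 to 16.7 and 9.53, 8.09 and 6.81 against 2.98 to 4.28. Of these 2 genes only IFI44L passed the 2-fold rule, at 1 mM. KRT6A, a keratin of stressed epithelia, had 98.7, 81.0 and 69.6 RPM against 23.6 to 43.2, and passed at 1 mM only. The amino acid transporter gene SLC38A4 had 68.5, 61.1 and 46.0 RPM against 23.1 to 35.4, and also passed at 1 mM only.

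HSPA6 and HMOX1 passed the rule at 10 mM and at no lower concentration. HSPA6, a strictly inducible HSP70 protein, had 7.62 RPM at 10 mM, against 0.347 at 1 mM and 1.62 at 2 mM. In the controls it had 0.304 RPM in VCP8, 1.63 in VCP1, 0.546 in VCP3 and 0.252 in VCP9. The 10 mM value rests on 75 reads and its exact 95% Poisson interval, 5.995 to 9.55 RPM, does not overlap the interval of any control. Intervals cover counting error only, since reads were counted without molecular identifiers. Its log2 ratios, 2.73 and 2.10, were the largest of all 19 upward changes at 10 mM. The sequence before the start of HSPA6 is shown because this gene had the largest rise. It holds 250 bases from RefSeq (GRCh38.p14, chr1:161524290-161524539, plus strand), and capitals mark GAANNTTC and TTCNNGAA, pairs of the unit bound by heat shock factors.

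HSPA6: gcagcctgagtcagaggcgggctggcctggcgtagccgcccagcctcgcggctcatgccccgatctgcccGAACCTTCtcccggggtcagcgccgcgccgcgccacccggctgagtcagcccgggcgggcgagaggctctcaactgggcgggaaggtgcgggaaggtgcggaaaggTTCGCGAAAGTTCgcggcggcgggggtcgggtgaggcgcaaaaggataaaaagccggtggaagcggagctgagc

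The script found 2 matches of GAANNTTC and 1 of TTCNNGAA, and the latter overlaps 1 of the former. Of the 27305 windows, 5.85% held GAANNTTC and 6.72% held TTCNNGAA. The heat shock list, of 12 other genes, held 0 changes past 2-fold at any concentration, with a median log2 ratio of 0.09 and -0.08 at 10 mM. HSPA1A had 453 RPM at 10 mM against 336 to 431 in the controls, and DNAJB1 39.9 against 26.5 to 34.9.

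HMOX1, which breaks down heme and releases its iron, had 22.1, 26.2 and 51.1 RPM at 1, 2 and 10 mM, against 18.5 in VCP8, 26.8 in VCP1, 17.3 in VCP3 and 19.9 in VCP9. Only the 10 mM library lay above all controls. Its log2 ratios there were 1.42 against VCP8 and 1.21 against VCP1 and VCP3, and its slope with concentration had an unadjusted p of 0.00023 (edgeR adjusted p = 0.285). SLC48A1, the heme transporter HRG1, had 19.5, 22.7 and 36.5 RPM against 15.1 to 19.8, with log2 ratios of 1.22 and 0.94 at 10 mM, just short of 2-fold against the second reference. Of the 19 measured NRF2 target genes, HMOX1 alone passed the 2-fold rule, and 12 were higher than both references at 10 mM, against 9 and 6 at 1 and 2 mM. Over all targets 28.0%, 31.7% and 25.6% were higher than both, in the same order, and 0.138% passed upward at 10 mM, so that the share at 2 mM was near that of all targets. The aldo-keto reductase genes AKR1C1, AKR1C2 and AKR1B10 were at their highest at 10 mM, with 1757, 3602 and 998 RPM against 1128 to 1274, 1883 to 2948 and 529 to 846 in the controls. The cystine transporter gene SLC7A11 had 101 RPM against 40.6 to 73.7. The AKR1C genes share sequence, so reads could be divided between them. The list's median log2 ratio at 10 mM was 0.24 and 0.31.

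NQO1 and GCLC, further NRF2 targets, did not pass the rule. NQO1 had 16.3 RPM at 10 mM, just above the controls at 6.502 to 15.4. GCLC, which makes the first intermediate of glutathione, had 206, 252 and 277 RPM in the ASC libraries, but 112 in VCP8 and 147 in VCP9 and 356 in VCP1 and 288 in VCP3. At 2 and 10 mM it was thus more than 2-fold higher than the matched control, while all 3 ASC libraries lay below VCP1 and VCP3. EGLN1, MDM2 and the metallothionein gene MT1E had the same arrangement of controls. MDM2, a p53 target, had 376, 571 and 562 RPM, against 283 in VCP8, 301 in VCP9, 628 in VCP1 and 691 in VCP3. Of the 21 p53 target genes, 0 passed at any concentration, and CDKN1A, which encodes p21, had 656, 526 and 508 RPM against 537 to 702 in the controls. The 18 genes of peroxide and superoxide removal also held 0 changes past 2-fold, and catalase (CAT) had 302, 220 and 195 RPM against 153 to 251. The lists of the unfolded protein response (16 genes), NF-kappaB and chemokine genes (14), immediate-early genes (14), sterol synthesis (19), lipogenesis (13), fatty acid oxidation (14), metallothioneins (8), proliferation (16) and cholangiocyte markers (6) held 0 changes past 2-fold as well. Over all targets the shares past 2-fold lay between 0.109% and 0.517% in each direction and at each concentration. A count of 0 in lists of this size, here and in the other paragraphs, is near these shares and is no result about their genes. The metallothioneins followed the controls' split, with median log2 ratios at 10 mM of 0.55 against VCP8 and -0.53 against VCP1 and VCP3.

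Of the genes of collagen and the extracellular matrix, COL3A1 and COL5A1 passed downward, both at 10 mM. COL3A1, a fibrillar collagen, had 22.2, 20.4 and 6.61 RPM at 1, 2 and 10 mM, against 32.6 in VCP8, 54.1 in VCP1, 41.2 in VCP3 and 28.5 in VCP9. COL5A1, which encodes a chain of collagen V, had 59.6, 55.5 and 32.2 RPM against 99.3 in VCP8, 95.7 in VCP1, 113 in VCP3 and 81.9 in VCP9. In both genes every ASC library lay below every control. At 10 mM the log2 ratios were -2.14 and -2.66 for COL3A1 and -1.59 and -1.66 for COL5A1, and both passed the rule there only. Their slopes with concentration had the lowest p values of the trend test, 4.17e-05 and 1.45e-05 before adjustment (edgeR adjusted p = 0.245 and 0.193), which miss the threshold.

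Of the 16 measured genes of the collagen and matrix list, 0 passed upward at any concentration and 2 passed downward at 10 mM, while edgeR called 0 in either test. Lower than both references were 11 at 1 mM, 10 at 2 mM and 14 at 10 mM, against 29.7%, 37.2% and 35.5% of all targets. In 6 of the 16 all 3 ASC libraries lay below all 4 controls, as in 8.37% of all targets. Against VCP8 and against VCP1 and VCP3, the median log2 ratio went from -0.11 and -0.22 at 1 mM to -0.27 and -0.48 at 2 mM and -0.48 and -0.59 at 10 mM. Comparing the ASC libraries with each other, which needs no control, 15 of the 16 had lower RPM at 10 than at 1 mM, against 55.0% of all targets. The basement membrane gene COL4A2 had 88.4, 79.7 and 60.4 RPM against 97.5 to 135, and SPARC, a collagen-binding protein, had 113, 84.2 and 64.1 against 113 to 132. COL1A1 had 21.3, 16.4 and 14.8 RPM against 22.4 to 33.1.

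Other genes that passed downward at 10 mM, on none of the lists and picked out after their values were seen, included PCOLCE and IGFBP5. PCOLCE, an enhancer of procollagen processing, had 75.2, 58.0 and 34.5 RPM against 61.0 to 90.8. IGFBP5, which encodes an insulin-like growth factor binding protein, had 6.33, 7.89 and 5.08 against 12.1 to 22.4. ITGA10, a collagen-binding integrin subunit, had 47.4, 34.5 and 25.1 RPM against 61.3 to 86.1. The fibroblast marker DCN had 53.5, 51.6 and 36.2 RPM against 55.6 to 91.4, and PDGFRB had 30.2, 21.7 and 14.3 against 16.5 to 25.8. The 14 markers of fibroblasts, stellate, endothelial and blood cells, of which 10 had enough reads, summed to 443, 450 and 375 RPM in the ASC libraries and to 430, 451, 586 and 581 in VCP8, VCP9, VCP1 and VCP3. Fewer cells of a type and less RNA per cell cannot be told apart in these pools, and the part of these markers in the result was not tested. The ascorbate-dependent enzymes that hydroxylate collagen held 0 changes past 2-fold. P4HA1, a prolyl hydroxylase subunit, had 27.2, 27.6 and 26.7 RPM against 27.7 to 38.4, and the lysyl hydroxylase PLOD2 had 358, 451 and 475 against 419 to 733.

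**Figure D3:**
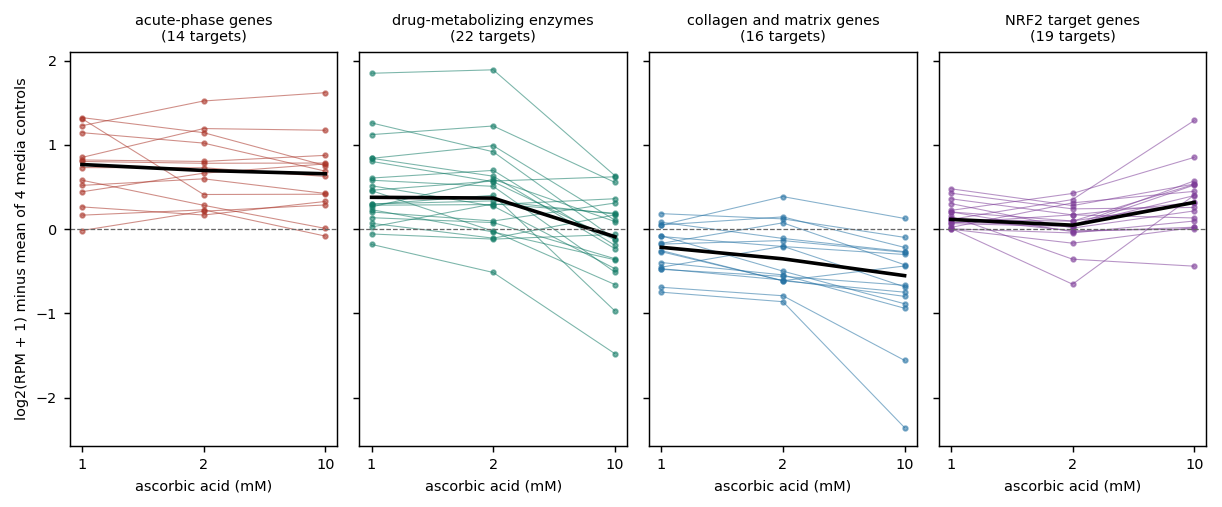
Each thin line is 1 gene, drawn over 1, 2 and 10 mM ASC as log2(RPM + 1) minus the mean of the 4 media controls, for 4 gene lists, and the black line is the list's median. The median of the acute-phase genes lies above 0 throughout, that of the drug-metabolizing enzymes lies above 0 at 1 and 2 mM and near 0 at 10 mM with single enzymes on both sides, and that of the collagen and matrix genes moves downward.

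Of the 22 drug-metabolizing enzymes, 2 passed upward at 1 mM, 2 at 2 mM and 0 at 10 mM, 1 passed downward at 10 mM, and edgeR called 0 in either test. CYP2A6, the main nicotine-oxidizing P450, had 37.4, 38.6 and 15.6 RPM at 1, 2 and 10 mM, against 12.9 in VCP8, 6.40 in VCP1, 6.00 in VCP3 and 17.0 in VCP9. It passed at 1 and 2 mM and, at 10 mM, was below VCP9. CYP2B6 had 56.9, 44.6 and 21.2 RPM against 14.5 to 29.8, and CYP2C19 had 40.4, 44.9 and 23.9 against 15.2 to 33.3.

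Among the 22 enzymes, 18 were higher than both references at 1 mM, 15 at 2 mM and 8 at 10 mM, where all targets had 31.7%, 25.6% and 28.0%. The median log2 ratios were 0.46 and 0.47 at 1 mM, 0.48 and 0.41 at 2 mM and 0.05 and -0.11 at 10 mM, the last being 0.22 without VCP1. Set directly against 1 mM, 17 of the 22 were lower at 10 mM and 7 were more than 2-fold lower, against 0.487% of all targets, with 0 more than 2-fold higher against 0.0946%. The median of the list for this difference was -0.66 and that of all targets -0.04. CYP3A4, the main P450 of human drug oxidation, had 24.6, 26.6 and 9.66 RPM against 12.2 to 27.4 in the controls. CYP1A1, a target of the aryl hydrocarbon receptor, had 38.7, 46.9 and 43.4 RPM against 25.6 to 52.4. CYP2E1, which oxidizes ethanol, went down with each concentration, from 22.5 to 17.6 and 8.54 RPM, against 26.5 in VCP8, 45.2 in VCP1, 14.5 in VCP3 and 24.3 in VCP9. It passed downward at 10 mM.

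Other hepatocyte enzymes also had lower RPM at 10 mM than at 1 mM. TAT, a tyrosine aminotransferase that glucocorticoids induce, had 11.4, 10.0 and 3.15 RPM against 2.52 to 5.96, and CYP8B1, which makes cholic acid, had 18.6, 18.2 and 9.86 against 4.50 to 9.23. The mitochondrial acyl-CoA synthetase ACSM2A had 140, 158 and 111 RPM against 42.3 to 83.5, and ACSM2B had 160, 173 and 129 against 38.5 to 88.0. Both were highest at 2 mM and lay above all controls at each concentration, but the 2 are near-identical copies. CYP8B1 and the ACSM2 genes were picked out after their values were seen. Of the 15 hepatocyte markers 0 passed the rule, with median log2 ratios of 0.11 and 0.53 at 1 mM and -0.28 and 0.18 at 10 mM. Set against 1 mM, however, 11 of the 15 were lower at 10 mM, with a median of -0.36, beside -0.66 for the enzymes and -0.04 for all targets. These markers also differed between the media controls, with a median log2 ratio in VCP9 of 0.50 against VCP1 and VCP3 and 0.08 against VCP8. The part of the hepatocyte markers in the values of the enzymes was not tested. ALB had 22870, 36330 and 27950 RPM against 14020 to 23410.

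Genes that handle ascorbate and iron held no change past 2-fold. The transporter SLC23A1 had 9.88, 6.07 and 5.69 RPM against 4.30 to 6.55 in the controls, and SLC23A2 had 33.5, 36.2 and 33.4 against 33.1 to 41.1. The ascorbate list had 10 measured genes and the iron list 17, and 0 of either passed. TFRC, the transferrin receptor, whose mRNA is destabilized when cells are rich in iron, had 163, 135 and 166 RPM, against 216 in VCP8, 228 in VCP1, 219 in VCP3 and 248 in VCP9. Every ASC library lay below every control, but the log2 fold change was -0.54 (standard error 0.11, edgeR adjusted p = 0.111). Ferritin genes did not separate, with FTH1 at 6448 to 6614 RPM against 5319 to 7277. GLRX, which encodes glutaredoxin, a reductant of dehydroascorbate, had 126, 116 and 93.3 RPM against 69.8 to 83.8.

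Sodium ascorbate also brings sodium, and the study's NaCl libraries give the same molar amount at 1 and 10 mM. The NaCl libraries were set against their own control VCP1 and against the mean of VCP3 and VCP8. The comparisons thus share controls, and their values are given side by side. FGB at 10 mM had log2 ratios of 1.39 and 1.07 with ASC and 0.09 and 0.25 with NaCl. XKRX had 1.45 and 1.58 with ASC and -0.0031 and -0.29 with NaCl, and COL5A1 had -1.59 and -1.66 with ASC and -0.08 and -0.22 with NaCl. HMOX1 had 25.6 RPM in NaCl at 10 mM, within the range of the controls. CRP and IGFBP1, which encodes an insulin-like growth factor binding protein, were the 2 genes past 2-fold with both chemicals at 10 mM, of 19 upward changes with ASC and 17 with NaCl. CRP had 104 RPM and IGFBP1 64.0 RPM with NaCl, against 121 and 39.03 with ASC.

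Some HIF targets were high in the 10 mM NaCl library and within the range of the controls with ASC. NDRG1 had 127, 137 and 151 RPM at 1, 2 and 10 mM ASC, 101 to 194 in the controls, and 269 and 563 at 1 and 10 mM NaCl. CA9, a carbonic anhydrase, had 22.3 RPM at 10 mM ASC, 15.2 to 27.2 in the controls and 46.4 at 10 mM NaCl. Of the 23 HIF targets measured, 0 passed with ASC at any concentration and 3 passed upward with NaCl at 10 mM. Of all 13746 targets, 19 passed upward and 71 downward with ASC at 10 mM, and 17 upward and 2 downward with NaCl. The 0 with ASC is thus near the share of all targets. VEGFA had 86.1, 77.9 and 86.4 RPM with ASC against 82.7 to 111 in the controls. Of 10 measured genes of the response to hypertonic stress, 1 passed upward at 1 mM ASC, the betaine transporter SLC6A12, with 14.7 RPM against 4.81 to 7.89. At 10 mM 1 passed upward, AKR1B1, with 3.86 RPM against 0.839 to 1.43. Over all targets 0.211% and 0.138% passed upward at 1 and 10 mM.

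**Figure D4:**
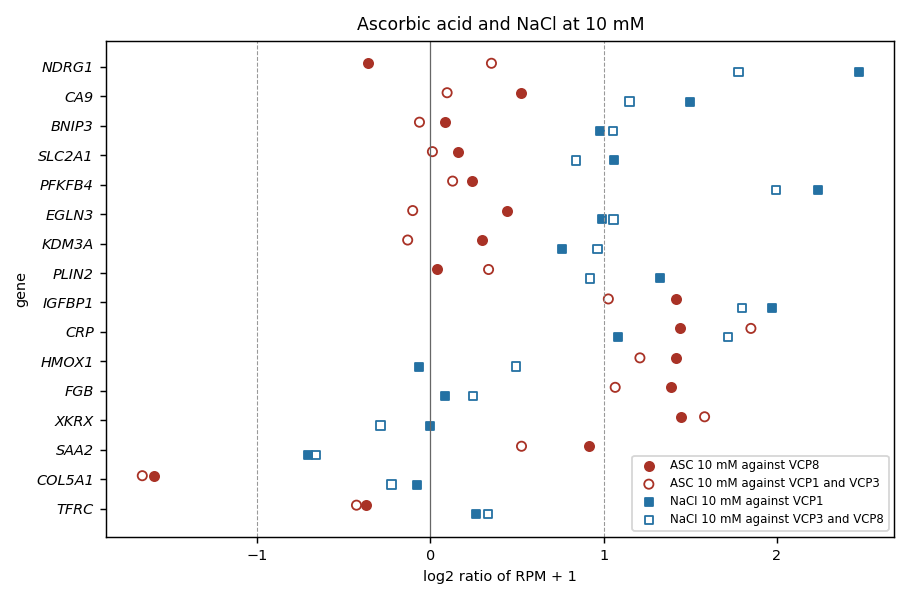
Log2 ratios of RPM + 1 at 10 mM for 16 genes are shown for ASC (red circles) and NaCl (blue squares), with filled symbols for the chemical's own control and open symbols for the mean of 2 other media controls. The HIF targets from NDRG1 to KDM3A are to the right for NaCl and near 0 for ASC, and IGFBP1 and CRP are to the right for both. HMOX1, FGB and XKRX are past 2-fold to the right for ASC only.

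Many of the targets lower than both references were not protein-coding. Among the lower targets whose gene type is given by RefSeq, 10 of 15 (66.7%) at 1 mM, 13 of 25 (52.0%) at 2 mM and 26 of 66 (39.4%) at 10 mM were pseudogenes or non-coding RNAs, as were 4.92% of all targets tested. The same shares among the higher targets were 14.3%, 9.52% and 11.1%. Changed targets in both directions had fewer reads than all targets tested, whose highest count had a median of 378. This median was 85, 85 and 112 for the lower and 125, 125 and 80 for the higher targets at 1, 2 and 10 mM. The part of read number in the shares was not tested. EID3, an inhibitor of differentiation and one of the 7 lower at all concentrations, had 55.5, 41.5 and 35.3 RPM against 128 in VCP8, 165 in VCP1, 148 in VCP3 and 70.9 in VCP9. The pseudogene RAB9BP1 had 2.08, 1.42 and 1.32 RPM against 6.39 in VCP8, 12.4 in VCP1, 8.46 in VCP3 and 2.60 in VCP9. In these targets VCP9 lay between the ASC libraries and the other controls. With VCP9 in place of VCP8, EID3, RAB9BP1, SNORA70G and MIR490 no longer passed at 10 mM, while COL3A1, COL5A1, ITGA10, CYP2E1, DGKG and H19 did. Pseudogene and small RNA targets share sequence with other genes, so their values are uncertain.

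Summed over 406 olfactory and taste receptor targets, a list chosen after the values were seen, the ASC libraries had 54.7, 56.4 and 50.3 RPM, VCP9 had 52.98, VCP8 had 65.1, VCP3 had 102 and VCP1 had 117.1. Most of these receptors are known from sensory cells, and the part of this sum in the result was not tested. DGKG and MKL1 were among the protein-coding genes in which all controls lay above the ASC libraries. DGKG, a diacylglycerol kinase, had 7.63, 6.98 and 5.29 RPM against 13.6 to 17.4, and passed downward at 10 mM only. MKL1, a coactivator of serum response factor, had 72.0, 80.3 and 75.2 against 123 to 170 (edgeR log2 fold change -0.95, standard error 0.14, adjusted p = 0.0978). Among the controls MKL1 differed by pair, with 169.5 RPM in VCP8, 165.5 in VCP9, 122.9 in VCP1 and 133.9 in VCP3. MKL1 did not pass the rule. The imprinted long non-coding RNA H19 had 142, 130 and 92.8 RPM against 218 to 299. ALDH7A1, an aldehyde dehydrogenase, had 141, 114 and 87.1 RPM against 160 to 188, below all controls at each concentration but under 2-fold against VCP8.

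The rule's threshold divides genes that hardly differ. At 10 mM the last target past it downward, FAM156B, had log2 ratios of -1.02 and -1.0013, and the first short of it, VIL1, had -1.05 and -0.9965. Upward, ADORA2A-AS1 passed with 1.09 and 1.01 and OLFM3 did not with 1.01 and 0.99.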

How the data were processed

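RNA of 3 cultures was pooled for each condition and sequenced with the human AmpliSeq transcriptome panel on an Ion Proton. The authors aligned reads to the panel's transcripts (hg19) with TMAP and deposited 2 tables, read counts per target and RPM. Each RPM value differed from the count scaled to the library total by at most 0.000538. All 39 columns were matched to samples through the barcodes in the labels.

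Ratios are differences of log2(RPM + 1), for the 13746 targets with at least 10 reads in 1 of the ASC libraries or VCP8, VCP1 and VCP3, and a change had to pass 2-fold against both references. The counts of the 3 ASC libraries and VCP1, VCP3, VCP8 and VCP9 were tested with edgeR 4.0.16 (TMM, quasi-likelihood test, Benjamini-Hochberg adjustment, R 4.3.3), with DESeq2 1.42.0 as an alternative, after tests on simulated data. Named genes are the 12 largest changes each way at 10 mM, the first 5 at 1 mM, at 2 mM and at all concentrations, the 5 lowest p values of each test and direction, and members of 24 lists. Members and lists were chosen with earlier results of these data known. Upstream sequences and gene types are from RefSeq (GRCh38.p14). The deposited tables hold no coordinates. Exact Poisson intervals are at 95%. The values of 1 gene are not reported here.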

Additional observations from a re-analysis of the deposited data

Results flagged for a closer look

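In the 4 media controls, 1 library stood apart from the other 3 by Dixon's test at its 95% critical value for 3 of the 54 named genes, where chance alone gives about 1 in 20. CRP was lowest in VCP3, at 21.9 RPM (gap over range 0.868). H19 was highest in VCP3, at 299 RPM (0.914). VEGFA was highest in VCP8, at 111 RPM (0.869). CRP and H19 also passed 2-fold at 10 mM ASC against VCP8, which is not the library that stood apart for them. VCP3 is, however, part of the second reference of the rule. Against that reference the log2 ratios were 1.85 for CRP and -1.47 for H19, beside 1.44 and -1.22 against VCP8.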

How the results depend on the processing

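With a threshold of 1.5-fold, 224, 182 and 187 targets were higher and 139, 245 and 404 lower at 1, 2 and 10 mM. A pseudocount of 0.1 gave 119, 92 and 94 higher and 111, 196 and 309 lower. Requiring 10 reads in all 6 libraries left 8 lower at 1 mM and 16 at 2 mM. VCP9 in place of VCP8, chosen after seeing the data, left 1, 10 and 27 lower. For ASC against the media controls, edgeR called 0 targets higher with RLE size factors, 10 higher and 5 lower without a filter, and 79 higher and 95 lower with all 16 media libraries, while DESeq2 called 96 and 124. Leaving out 1 library at a time gave 0 to 0 higher and 0 to 1 lower, the 1 being without VCP9. The trend gave 11 higher and 29 lower with all 16 media libraries and 18 and 48 with DESeq2, and 0 to 0 each way when 1 library was left out. The cause of these shifts was not tested. Of 756 log2 ratios of named genes at 10 mM under these alternatives, 66 moved by more than the spread of the controls (25 with VCP9 in place of VCP8, 15 with the pseudocount, 13 without VCP1 and 13 without VCP3), and 23 of 336 list medians did (8 without VCP1, 9 without VCP3). The sign differed for 9 gene ratios and 21 list medians, and for 0 genes past 2-fold at 10 mM. The counts under the other scalings and second references stayed within 1.5 times. No paired analysis was possible because each ASC concentration has 1 library and the control numbers only name vehicles.

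Each concentration is 1 pool, so no spread between cultures was measured, and the concentrations are not replicates of one another. The p values measure the spread between pools. With 10 reads at the filter, ratios of low targets are imprecise.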
